A study of Mus musculus with 4 samples.

Results

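CD8 alpha beta T cells of mouse skin and skin tumors were chosen by the transcripts of single cells. A cell entered when it held at least 1000 unique molecular identifiers (UMIs, each counting 1 captured RNA molecule) and at most 15% mitochondrial UMIs, at least 2 UMIs of Cd8a and Cd8b1 together, at least 2 of Trac and Cd3e together, none of Cd4 or Foxp3, at most 3 of Trdc, at most 1 of Csf1r and at most 2 of Top2a and Mki67 together. This rule gave 337 cells, 2.57% of the 13124 cells that passed the quality limits and drawn from 14795 deposited barcodes. They were 116 cells of control skin 1, 43 of control skin 2, 146 of skin tumor 1 and 32 of skin tumor 2. The study sorted living CD45+ cells, that is immune cells, after collagenase digestion and made 1 droplet library of 3' RNA from each of the 4 tissues. Control skins came from C57/BL6 mice that received no tumor cells. Skin tumors grew on the flank of C57/BL6 mice after injection of cells of the 2323 line at 8 to 10 weeks of age, and the ages of the control mice are not given in the sources used here. The 2323 line derives from a tumor graft of a mouse model whose alleles include K14rtTA, tetOCre and P53-/-, in which the K14 promoter drives the transactivator in keratinocytes, so all tumors stem from 1 transplanted line in hosts that carry none of these alleles. The methods name 2 tumors and 2 control skins for the 4 libraries, and the p-values below measure the spread between these libraries only.

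CD8 T cells read peptides on MHC class I through the alpha beta T cell receptor, with the CD8 alpha and beta chains as coreceptor, and kill target cells with perforin and granzymes. In healthy skin many of them are resident memory cells, which stay in the epithelium by means of integrins such as alpha E (CD103, encoded by Itgae), which binds E-cadherin, while naive and central memory cells recirculate through blood and lymph nodes with the help of receptors such as Ccr7. Antigen that persists, as in a tumor, is known to drive a state named exhaustion, with inhibitory receptors such as PD-1 (Pdcd1) and LAG-3 (Lag3) and the transcription factor TOX.

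The genes of the rule are given as a description. Cd8b1 stood at 436 and 398 normalized CPM (UMIs of a gene per 1000000 UMIs of the CD8 T cells of a library, scaled with TMM factors) in control skins against 399 and 293 in skin tumors. Trac stood at 603 and 514 CPM in control skins against 372 and 310.0 in skin tumors. Both CD8 chains were found in 91.4%, 88.4%, 87.0% and 81.2% of the cells of control skin 1, control skin 2, skin tumor 1 and skin tumor 2, the order used for 4 values throughout, and Trac in 113 of 116, 40 of 43, 131 of 146 and 32 of 32 cells. At the edges of the rule, 31 cells held just 2 UMIs of the CD8 chains and 39 otherwise fitting cells held 1. At the limit for Top2a and Mki67, 38 cells lay just inside and 186 otherwise fitting cells outside, 22 of these just outside. No cell barcode was shared between libraries among the 337 cells (1 to 5 were shared per pair of libraries among all cells that passed the limits).

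CD8 T cells made up 3.73% (exact Clopper-Pearson 95% interval 3.09 to 4.45), 1.35% (0.977 to 1.81), 3.03% (2.57 to 3.56) and 1.59% (1.09 to 2.24) of all cells that passed the limits. The groups overlapped, with means of 2.54% ± 1.68 in control skins against 2.31% ± 1.02 in skin tumors (SD, n = 2 each; two-sided exact permutation test over libraries, p = 1). With 2 libraries against 2 the exact permutation test cannot go below p = 0.333. For each CD4 conventional T cell (Cd4 present, CD8 chains and Foxp3 absent) there were 1.66, 1.34, 1.20 and 0.360 CD8 T cells. This order rested on the limit on dividing cells: with dividing cells kept in both cell types, an alternative chosen after seeing the data, the ratios were 1.68, 1.24, 2.04 and 0.427, and the groups overlapped. The limit on Top2a and Mki67, genes of dividing cells, had removed 27 of 143, 9 of 52, 138 of 284 and 12 of 44 otherwise fitting cells (18.9%, 17.3%, 48.6% and 27.3%), and the cells described here are those left. Median depth was alike between libraries, at 9478.5, 9943, 10337 and 9526.5 UMIs per cell, and the cells of a library summed to 1219420, 436253, 1531150 and 338956 UMIs. Control skin 2 and skin tumor 2 thus carry the larger counting error.

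Some of the 337 cells held transcripts of other cell types. Genes of macrophages summed to 632, 371, 439 and 2401 UMIs per 1000000 in the 4 libraries (10 of 19 listed genes could be tested, Apoe most abundant in skin tumor 2), and genes of MHC class II and dendritic cells to 920.1, 456, 299.8 and 1708 (Cd74 most abundant in all 4). Skin tumor 2 was highest on both lists. Genes of keratinocytes summed to 1151, 105, 50.3 and 41.3, where 372 of the 389 Krt14 UMIs of control skin 1 lay in 1 cell. The B and plasma cell genes Cd79a and Jchain and the NK cell genes Klrb1c, Klra4 and Klra8 were at 0 in all 4 libraries, and hemoglobin genes were not found. Other genes of these cells were present: the B and plasma cell list summed to 6.56, 18.3, 118 and 50.2 UMIs per 1000000 (Igkc most abundant in skin tumor 1, Ighm in the others), the NK cell list to 123, 156, 199 and 268 (Fcer1g most abundant except in skin tumor 1, where it was Eomes) and the neutrophil list to 6.56, 9.17, 154 and 97.4 (S100a9 most abundant in skin tumor 1 and Il1b in skin tumor 2). The part of these transcripts in the results was not tested, but each count of called genes of a list in the comparison of skin tumor with control skin was also taken without the cells that held 5 or more UMIs of macrophage and MHC class II genes, which left 74, 24, 86 and 10 cells.

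Comparing skin tumor with control skin asked how CD8 T cells of the tumor differ from those resident in skin. Of 7156 genes tested, 177 were higher in skin tumors (2.47% of the genes tested) and 181 lower (2.53%) by edgeR's quasi-likelihood test at a Benjamini-Hochberg adjusted p under 0.05. The genes of the rule were left out of the test. Over all genes tested the median log2 fold change was 0.04. In each of the 358 called genes both skin tumors lay above, or both below, the control skins. The same held for many uncalled genes: of all 7156 genes tested, both skin tumors lay above in 1821 and below in 1712. The number of calls fell to 105 without control skin 1, rose to 725 without skin tumor 2, and came to 371 and 497 without control skin 2 and without skin tumor 1. Of the 116 genes past the threshold that the naming rule picked, 36 passed it in each of these 4 fits. The plot of gene lists shows which groups moved to one side.

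**Figure D1:**
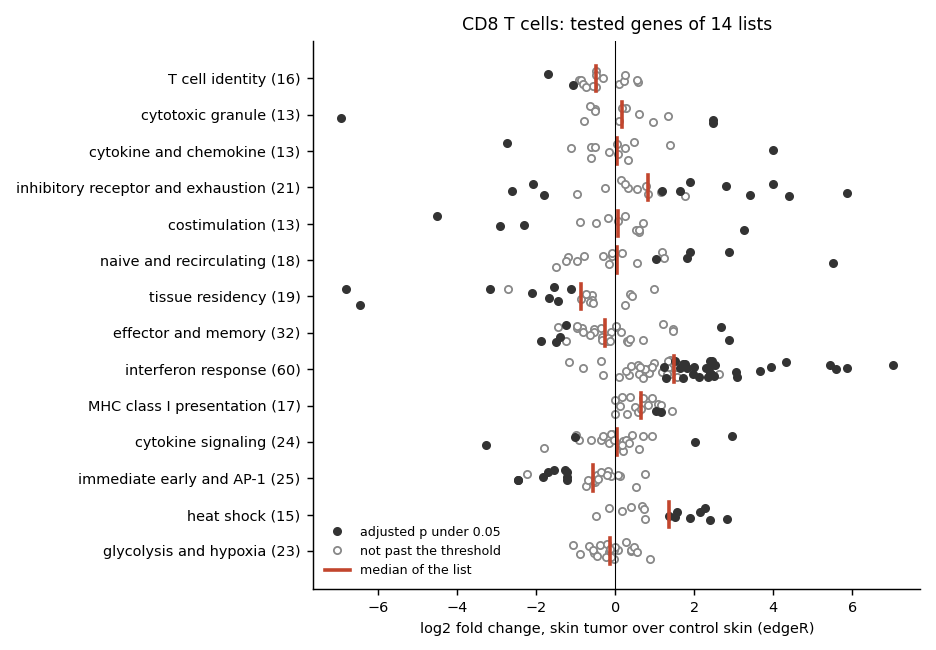
Log2 fold change (skin tumor over control skin, edgeR) of each tested gene of 14 lists in CD8 T cells, with the number of tested genes in parentheses. Filled points passed an adjusted p of 0.05, open points did not, red bars are list medians; genes at 0 UMIs in a group are drawn at their fitted value, which depends on the prior count. The interferon response (29 of 60 filled) and heat shock (8 of 15) lists lie to the right and tissue residency (8 of 19) to the left.

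Genes of tissue residency were lower in the tumor. Of 19 tested members 8 fell and none rose, with a median log2 fold change of -0.86 (0.04 over all genes tested). Itgae (ENSMUSG00000005947, protein coding, chr11:73090583-73147446 on the plus strand of GRCm38), which encodes integrin alpha E, stood at 429 and 382 CPM in control skins against 2.55 and 11.5 in skin tumors. The groups were far apart, and the log2 fold change was -6.47 ± 0.45 (SE, n = 2 libraries each, edgeR adjusted p = 6.6e-04). A transcript of Itgae was found in 109 of 116 and 35 of 43 control cells but in 1 of 146 and 3 of 32 tumor cells. Itga1, the collagen-binding integrin alpha 1, fell from 46.1 and 52.3 CPM to 12.1 and 8.61 (adjusted p = 0.022). Rgs1 and Rgs2, regulators of G protein signaling, fell as well, Rgs1 from 1252 and 1039.9 CPM to 437 and 408, and so did the chemokine receptor Ccr8, from 122 and 61.4 to 12.1 and 5.74. Ccr10, a receptor for a chemokine of keratinocytes, was at 17.4 and 13.7 CPM in control skins and without a UMI in skin tumors, at least 10.5-fold lower (against a floor of 3 counts over the group). Smad7 and Ahr, of the TGF-beta and aryl hydrocarbon pathways, completed the list with log2 fold changes of -1.12 and -1.56.

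Other residency genes did not pass the threshold. The chemokine receptor Cxcr6 stood at 1062 and 869 CPM in control skins against 499 and 660.2 (adjusted p = 0.144), Cd69 at 224 and 164 against 152 and 97.6 (adjusted p = 0.289), and the transcription factor Runx3 at 459 and 507 against 713 and 539.6 (adjusted p = 0.45). Cxcr6 was thus still found in 113 of 146 and 27 of 32 tumor cells, most of them without Itgae. Without control skin 1 only Itgae stayed past the threshold (log2 fold change -6.33), 1 of 19 members, Itga1 and Smad7 missed it also without control skin 2 (adjusted p = 0.057 and 0.072) and Ahr without skin tumor 1 (0.155), where 1 of 18 members, the TGF-beta receptor Tgfbr1, rose, and without the cells rich in macrophage and MHC class II genes 5 of 18 fell. In all cells that passed the limits, the residency list summed to 7572 and 6518 UMIs per 1000000 in control skins against 3101 and 3061 in skin tumors. In CD8 T cells it summed to 6734, 6356, 3962 and 3832, so the sum was lower in skin tumors in both.

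**Figure D2:**
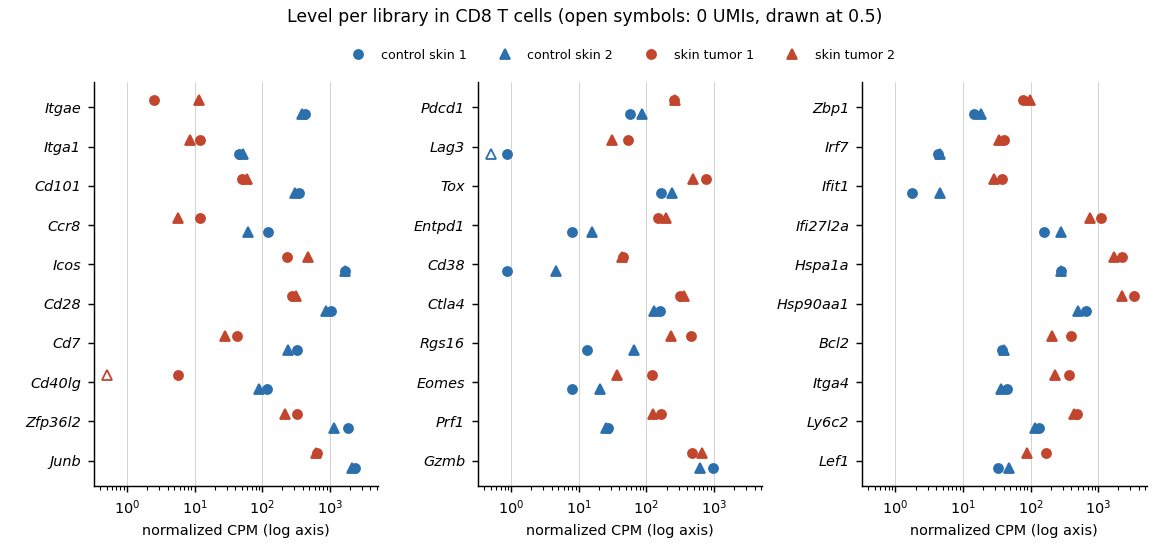
Normalized CPM on a log axis of 30 named genes in the CD8 T cells of each library (blue: control skins, red: skin tumors; circles: replicate 1, triangles: replicate 2; open symbols: 0 UMIs, drawn at 0.5). Itgae, Icos and Junb are lower in both skin tumors, Entpd1, Zbp1 and Hspa1a higher, and the libraries of the groups interleave for Gzmb.

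Inhibitory receptors and genes of exhaustion moved in both directions, more often up. Of 21 tested members 8 rose and 3 fell, with a median log2 fold change of 0.82. Pdcd1, which encodes PD-1, stood at 58.3 and 86.5 CPM in control skins against 258 and 267 in skin tumors, a log2 fold change of 1.90 ± 0.26 (edgeR adjusted p = 0.0064). Lag3 held 1 UMI in control skin 1 and none in control skin 2, against 84 and 11 UMIs (53.6 and 31.6 CPM) in skin tumors. Both receptors were higher in each skin tumor than in either control skin. Entpd1 (CD39), an enzyme that breaks down extracellular ATP, rose from 7.83 and 15.9 CPM to 149 and 192, a log2 fold change of 3.98 ± 0.38 (adjusted p = 0.0018). Tox rose from 165 and 241 CPM to 755 and 488 (log2 fold change 1.65 ± 0.30, adjusted p = 0.016). Cd38, a NAD-degrading enzyme, rose by 4.41 on the log2 scale, Rgs16 by 3.41, the T-box factor Eomes by 2.80 and Ctla4 by 1.18.

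The members of that list that fell were Cd101, an immunoglobulin-like surface protein (349 and 305 CPM to 49.7 and 60.3), the prostaglandin receptor Ptger4 (357 and 187 to 60.6 and 74.6) and Nr4a1, a nuclear receptor induced by T cell receptor signals (656 and 526 to 147 and 198). Havcr2 (TIM-3) stood at 87.0 and 146 CPM against 203 and 195 (adjusted p = 0.148), and Tigit at 34.8 and 43.2 against 52.3 and 63.1 (adjusted p = 0.419). The groups did not overlap for either, but the differences were within what the test allows for the spread. The counts were 3 up and 2 down of 21 without control skin 1: Rgs16, Entpd1, Cd101 and Nr4a1 were past the threshold in every fit that left out a library, whereas Pdcd1 (log2 fold change 1.61, adjusted p = 0.058), Tox (1.38, adjusted p = 0.154), Ctla4 (1.36, adjusted p = 0.108) and Cd38 (3.26, adjusted p = 0.058) were not past it without control skin 1. Eomes missed it without control skin 1 (2.05, adjusted p = 0.181) and without skin tumor 1 (1.55, adjusted p = 0.35). Ctla4 missed it also without control skin 2 (1.02, adjusted p = 0.156), Ptger4 missed it without control skin 1 (-1.48, adjusted p = 0.06), and Lag3 was too low to be tested without skin tumor 1.

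Cells with Pdcd1 were compared with cells without it for other transcripts. Of the 83 cells with Pdcd1 in skin tumor 1, 78 also held Tox, 64 Havcr2, 60 Gzmb and 38 Lag3, and of the 21 in skin tumor 2, 18 held Tox, 14 Havcr2, 15 Gzmb and 9 Lag3. Of the 63 cells without Pdcd1 in skin tumor 1, 34 held Tox, 8 Havcr2, 24 Gzmb and 7 Lag3, and of the 11 in skin tumor 2, 6 held Tox, 7 Gzmb and none Havcr2 or Lag3. In control skins 12 of the 26 and 9 of the 17 cells with Pdcd1 held Tox, as did 40 of the 90 and 11 of the 26 cells without it. Havcr2 was also found in 60.9% and 62.4% of the macrophages with C1q transcripts in the skin tumors. In the tumors, cells with Pdcd1 were somewhat deeper than cells without (median 11218 against 9057 UMIs in skin tumor 1 and 9988 against 9205 in skin tumor 2), which raises every count of cells with 2 transcripts.

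Genes of the cytotoxic granule showed no common direction. Of 13 tested members 2 rose and 1 fell, with a median log2 fold change of 0.16. The number of rises depended on the libraries used. With a library left out the median ran from 0.09 (without skin tumor 2) to 0.61 (without control skin 1). Prf1, which encodes the pore-forming protein perforin, stood at 27.0 and 25 CPM in control skins against 163 and 123 in skin tumors, a log2 fold change of 2.47 ± 0.29 (edgeR adjusted p = 0.0035). Gzmk, a granzyme, was at 6.09 and 13.7 CPM against 61.8 and 28.7, a rise that did not pass without control skin 1 (adjusted p = 0.247) or without skin tumor 1 (adjusted p = 0.449). Granzyme B (Gzmb) did not pass the threshold, with 984 and 614 CPM in control skins against 469 and 657 in skin tumors (log2 fold change -0.52 ± 0.30, adjusted p = 0.403), and the groups overlapped. Nkg7, a granule membrane protein, stood at 631, 705, 1144 and 861 CPM (adjusted p = 0.242). Gzmc, another granzyme, fell by 6.95 on the log2 scale (adjusted p = 0.033). It had 34 UMIs in 16 of 116 cells of control skin 1 (29.6 CPM), whereas 180 of its 186 UMIs in control skin 2 lay in 1 cell, and skin tumors held 2 UMIs and 1 UMI (1.28 and 2.87 CPM). The fall passed in all 4 fits that left out a library, at -4.10 (adjusted p = 0.019) without control skin 2, but not in cells with no Trdc UMI and Trac present (adjusted p = 0.052). Without the cells rich in macrophage and MHC class II genes 2 of 12 rose and none fell.

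Among cytokines and chemokines 1 of 13 tested genes rose and 1 fell. Csf1, the growth factor of macrophages, stood at 5.22 and 0 CPM in control skins against 48.5 and 74.6 in skin tumors (log2 fold change 3.98 ± 0.65, edgeR adjusted p = 0.011), and Il2, the T cell growth factor, at 47.8 and 36.4 against 4.46 and 11.5 (adjusted p = 0.023). Il2 missed the threshold without control skin 1 (adjusted p = 0.537) and without skin tumor 1 (adjusted p = 0.101). Ccl5, a chemokine of effector T cells and the most abundant of the list, stood at 1946 and 1033 CPM against 4073 and 3766, just short of the threshold (log2 fold change 1.39 ± 0.35, adjusted p = 0.058). Ifng, which encodes interferon gamma, stood at 177 and 93.3 CPM against 212 and 103, with overlapping groups (adjusted p = 0.804). Without the cells rich in macrophage and MHC class II genes 2 of 13 rose and 2 fell, Ccl5 among the rises.

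Genes of the interferon response were higher in the tumor. These genes are switched on when interferon binds its receptor, and many encode antiviral proteins. Of 60 tested members 29 rose and none fell, and the median log2 fold change was 1.49. Zbp1, a sensor of DNA and RNA, stood at 14.8 and 18.2 CPM in control skins against 77.8 and 97.6 in skin tumors, a log2 fold change of 2.42 ± 0.35 (edgeR adjusted p = 0.0076). Irf7, a transcription factor of the type I interferon loop, rose from 4.35 and 4.55 CPM to 40.2 and 34.4, and Ifi27l2a from 157 and 284 to 1107 and 755. Neither overlapped between groups. Gbp5, a guanylate-binding protein, had no UMI in control skins against 19.1 and 17.2 CPM in skin tumors, at least 9.95-fold higher. The others that rose included Ifit1, Ifit2, Ifit3, Rsad2 and Mx1, which act against viral RNA or replication. Usp18, which removes the ubiquitin-like protein ISG15 from other proteins, rose as well. Isg15 itself stood at 68.7 and 45.5 CPM against 58.7 and 135 (adjusted p = 0.507), so the groups overlapped.

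The count of interferon genes depended on the libraries and cells used. It was 7 of 59 without control skin 1, 23 of 55 without skin tumor 1 (where Socs1, an inhibitor of cytokine signals, fell), 29 of 64 without control skin 2, 35 of 64 without skin tumor 2, and 15 of 45 without the cells rich in macrophage and MHC class II genes, with medians between 1.38 and 1.87. Ifi214, Zbp1, Herc6, Phf11b, Xaf1 and Iigp1 were among those past the threshold in all 4 fits that left out a library. The list summed to 2362 and 2952 UMIs per 1000000 in control skins against 6242 and 6496 in skin tumors in CD8 T cells, and to 2180.4, 2759.8, 9775 and 7502 in all cells that passed the limits. Genes of MHC class I presentation, which overlap the interferon response, had a median of 0.65 (0.57 to 0.73 with a library left out). The number of rises went up or down with the library left out. With all 4 libraries 2 of 17 members rose. They were the immunoproteasome subunit Psmb8 (170.5 and 159 CPM to 414 and 319) and H2-T23 (117 and 102 to 225 and 232). Neither passed without control skin 1 (adjusted p = 0.16 and 0.158) or without control skin 2 (adjusted p = 0.14 and 0.198), 3 of 16 members rose without the cells rich in macrophage and MHC class II genes, and B2m, the light chain, stood at 2218, 2248, 2404 and 2477 CPM (adjusted p = 0.861).

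The promoters of some of these genes are shown because 29 members of the list rose. Interferon-stimulated response elements are known to carry the letters GAAA in a pair that is 2 bases apart, which read TTTC in a like pair on the other strand. Of the 29 genes that rose, 19 had a promoter in the RefSeq table used (GRCm38.p6), too few for a share over the group, and 13 of these 19 held the letters on either strand within 250 bases before the start, as did 936 of the 27025 genes with a promoter in the table (3.46%). Of the 31 tested members that were not past the threshold 26 had a promoter in the table, and 12 of these (46.2%) held the letters. A match is a description of the sequence and not a bound site. Windows of 100 bases, read 5' to 3' on the strand of the gene with matches in capitals, were chr19:34640759-34640858 (plus strand) for Ifit1, chr19:34583362-34583461 (plus strand) for Ifit3, chr11:58214868-58214967 (plus strand) for Irgm2, chr14:59341331-59341430 (minus strand) for Phf11b and chr12:26456518-26456617 (minus strand) for Rsad2:
Ifit1: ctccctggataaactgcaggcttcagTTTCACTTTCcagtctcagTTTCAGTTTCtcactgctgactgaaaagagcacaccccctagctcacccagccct
Ifit3: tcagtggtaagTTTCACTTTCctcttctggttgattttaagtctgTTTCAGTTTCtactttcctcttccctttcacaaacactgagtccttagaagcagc
Irgm2: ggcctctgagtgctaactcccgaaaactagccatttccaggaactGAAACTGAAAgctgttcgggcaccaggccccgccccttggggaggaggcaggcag
Phf11b: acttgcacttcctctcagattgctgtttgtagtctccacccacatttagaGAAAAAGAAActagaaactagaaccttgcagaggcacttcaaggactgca
Rsad2: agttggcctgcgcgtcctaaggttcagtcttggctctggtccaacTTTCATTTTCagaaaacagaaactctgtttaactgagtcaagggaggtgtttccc

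Ifit1 and Ifit3 each held 2 matches in their windows. Ifit1 stood at 1.74 and 4.55 CPM in control skins against 38.3 and 28.7 in skin tumors, and Ifit3 at 0 and 6.83 against 35.1 and 31.6. Both rose (edgeR adjusted p = 0.014 and 0.048) on counts of at most 3 UMIs per control library, and neither passed without control skin 1 (adjusted p = 0.16 and 0.255) or could be tested without skin tumor 1. Phf11b, with 1 match, rose from 13.9 and 13.7 CPM to 74.0 and 77.5. Irgm2, an immunity-related GTPase, rose from 5.22 and 6.83 CPM to 38.9 and 25.8, and Rsad2 (viperin) from 8.70 and 9.10 to 50.4 and 43.1. Neither passed without control skin 1 (adjusted p = 0.269 and 0.101) or without skin tumor 1 (0.392 and 0.14), and Irgm2 also missed it without control skin 2 (0.055).

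Genes of naive and recirculating cells rose in part. Of 18 tested members 5 rose and none fell, at a median of 0.04, equal to that of all genes tested. Ly6c2, a surface protein of memory CD8 T cells, rose from 132 and 116 CPM to 486 and 445, a log2 fold change of 1.90 ± 0.22 (edgeR adjusted p = 0.0035), and Lef1 and Satb1, transcription factors of early T cells, by 1.81 and 1.04 on the log2 scale. Cd55, a complement regulator, rose from 6.09 and 2.28 CPM to 32.5 and 43.1. Tcf7, which encodes TCF1 of stem-like T cells, lay on the other side with 151 and 109 CPM against 66.3 and 43.1 (adjusted p = 0.055), and Il7r, the IL-7 receptor, with 336 and 255 against 62.5 and 166 (adjusted p = 0.073). Ccr7 was at 33.9 and 27.3 CPM against 63.8 and 89.0 (adjusted p = 0.073). The list therefore split, with Ly6c2, Lef1, Satb1 and Cd55 higher and Tcf7 and Il7r at lower values. Without control skin 1 only Ly6c2 passed (1 of 17), with adjusted p = 0.083 for Cd55, 0.167 for Lef1 and 0.179 for Satb1. Satb1 also missed the threshold without control skin 2 (0.227), and Cd55 and Lef1 without skin tumor 1 (0.079 and 0.075). The counts were 4 up and 2 down of 18 without control skin 2, 4 up and 1 down of 16 without skin tumor 1 and 5 up and 3 down of 18 without skin tumor 2. When dividing cells were kept, 3 rose and 5 fell, and without the cells rich in macrophage and MHC class II genes 4 of 16 rose and 3 fell, Tcf7 and Il7r among the falls.

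Costimulatory receptors moved in both directions. Of 13 tested members 3 fell and 1 rose, at a median of 0.07. Icos, the inducible costimulator, was among the most abundant with 1698 and 1702 CPM in control skins against 232 and 474 in skin tumors, a log2 fold change of -2.30 ± 0.35 (edgeR adjusted p = 0.0087). Cd40lg, the helper ligand CD40L, fell from 120.0 and 88.7 CPM to 5.74 and 0, and Cd7 from 329 and 243 to 42.7 and 28.7. Tnfrsf4 (OX40) rose from 9.57 and 9.10 CPM to 107 and 68.9 (log2 fold change 3.26 ± 0.40, adjusted p = 0.0044). All 4 stayed past the threshold in each fit that left out a library. Among 16 genes of T cell identity 2 fell, at a list median of -0.49. They were Cd28 (1040.2 and 887 CPM to 281 and 313, edgeR adjusted p = 0.0064) and the adhesion molecule Cd2 (618 and 544 to 289 and 267). The number of falls depended on the libraries used, with list medians from -0.63 (without skin tumor 2) to -0.47 (without control skin 1). Cd2 missed the threshold without control skin 1 (adjusted p = 0.232) and without control skin 2 (adjusted p = 0.062). Ptprc, which encodes CD45, was at 2334, 2289, 1513 and 1805 CPM (adjusted p = 0.383).

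Of 32 effector and memory genes 2 rose and 4 fell, at a median of -0.27. This balance of rises and falls changed with the library left out. The median then ran from -0.35 (without skin tumor 2) to 0.03 (without skin tumor 1). Itga4, integrin alpha 4, which binds VCAM-1 on vessels, stood at 44.4 and 36.4 CPM in control skins against 365 and 232 in skin tumors (log2 fold change 2.88 ± 0.30, edgeR adjusted p = 0.0026). Klre1, a lectin-like receptor, rose from 16.5 and 15.9 CPM to 103 and 106. The chemokine receptor Cxcr3 fell from 102 and 68.3 CPM to 24.9 and 20.1, the hyaluronan receptor Cd44 from 722 and 894 to 203 and 379, S100a4 from 1472 and 2023 to 645 and 672, and Vim from 991 and 1215 to 448 and 474. The integrins thus moved apart, alpha 4 up and alpha E and alpha 1 down. The 4 falls did not pass without control skin 1 (adjusted p = 0.155 for Cxcr3, 0.066 for Cd44, 0.06 for S100a4 and 0.083 for Vim), and those of Cd44, S100a4 and Vim did not pass without control skin 2 (0.052, 0.097 and 0.095). Of 8 innate-like T cell genes Gata3 fell (162 and 177 CPM to 81.0 and 40.2) and Zbtb16 fell, where 26 of 40 and 9 of 16 UMIs of the control libraries lay in 1 cell each, and neither passed without control skin 1 (adjusted p = 0.118 and 0.384), nor Gata3 without control skin 2 (0.061). Without the cells rich in macrophage and MHC class II genes 7 of 30 effector and memory genes rose and 4 fell, and of 5 innate-like genes 2 rose, Ikzf2 and Klra1, and none fell.

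Cytokine signaling genes had no common direction, with 2 of 24 up and 2 down at a median of 0.06. These counts depended on the libraries used. With a library left out the median ran from -0.10 (without skin tumor 2) to 0.13 (without control skin 1). Bcl2, which protects T cells from death, stood at 38.3 and 41.0 CPM in control skins against 393 and 207 in skin tumors (log2 fold change 2.96 ± 0.35, edgeR adjusted p = 0.0035). Il10ra, the receptor of the inhibitory cytokine IL-10, rose from 29.6 and 41.0 CPM to 143 and 129, and Il6ra, the IL-6 receptor, fell from 75.7 and 88.7 to 8.29 and 8.61. The kinase gene Pim1 fell from 593 and 526 CPM to 256 and 299. Without control skin 1 Il10ra (adjusted p = 0.06) and Pim1 (adjusted p = 0.263) missed the threshold, and Pim1 also without control skin 2 (adjusted p = 0.077). Stat3 stood at 1158, 1227, 1449 and 1582 CPM (log2 fold change 0.34 ± 0.24, adjusted p = 0.516).

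Immediate early genes, induced within minutes of stimulation and of tissue digestion, were lower in the tumor, and heat shock genes, which encode chaperones, were higher. Of 25 immediate early and AP-1 genes 9 fell and none rose, at a median of -0.57. Junb stood at 2372 and 2157 CPM in control skins against 645 and 631 in skin tumors (log2 fold change -1.83 ± 0.25, edgeR adjusted p = 0.0064), and the RNA-binding proteins Zfp36l2, Zfp36l1 and Zfp36 fell with it, Zfp36l2 from 1888 and 1172 to 325 and 218. Fos (245, 109, 106 and 146 CPM, adjusted p = 0.464) and Jun (208, 34.1, 162 and 218, adjusted p = 0.706) did not pass, with overlapping groups. The count was 3 down and 1 up of 24 without control skin 1, and Junb, Zfp36l1 and Zfp36l2 passed in all 4 fits that left out a library.

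Of 15 heat shock genes 8 rose and none fell, at a median of 1.35. Hspa1a (HSP70) stood at 284 and 278 CPM in control skins against 2281 and 1719 in skin tumors (log2 fold change 2.83 ± 0.27, edgeR adjusted p = 0.0018), Hsp90aa1 at 660.1 and 501 against 3352 and 2242, and Hsph1 at 223 and 162 against 1107 and 947. Hspa1a and Hspa1b are near-identical copies, so their counts are uncertain one by one. The count was 5 of 15 without control skin 1 and 6 to 8 without another library. Sums of both lists also lay apart in all cells that passed the limits: heat shock genes summed to 7217, 6709, 19888 and 14881 UMIs per 1000000 in CD8 T cells and 8882, 7398, 17539.6 and 19010.1 in those cells, and immediate early genes to 13479, 11764, 6128 and 6709 against 11948, 11755, 9873 and 10902. The handling of the tissues and the tumor cannot be told apart here. Of 23 genes of glycolysis and hypoxia none passed (5 at an unadjusted p under 0.05, as 18.7% of all genes tested were, and none by DESeq2), with Gapdh at 1193, 1038, 1180.2 and 861 CPM.

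**Figure D3:**
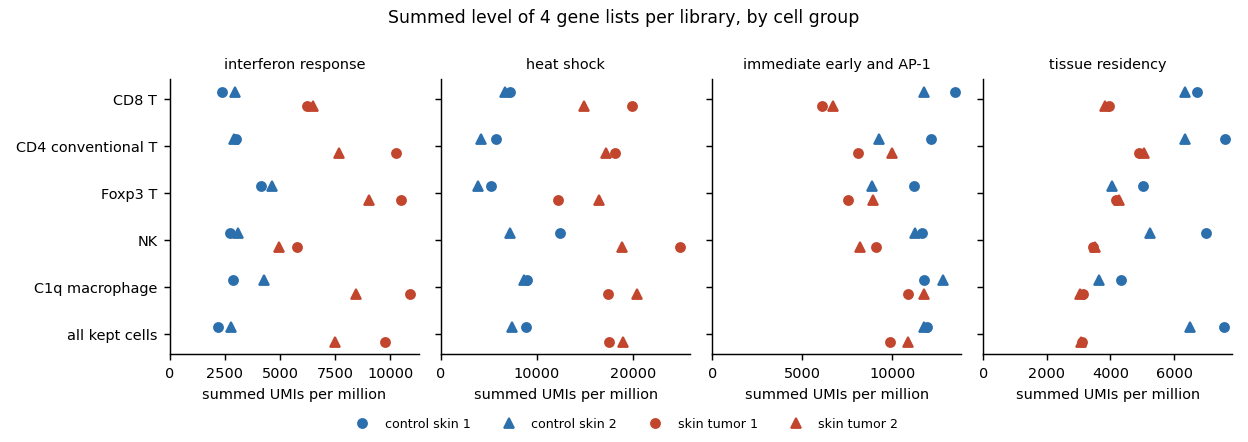
UMIs per 1000000 summed over the genes of 4 lists in CD8 T cells, 4 other gated cell groups and all cells that passed the limits (blue: control skins, red: skin tumors; circles: replicate 1, triangles: replicate 2). Interferon and heat shock sums are higher in both skin tumors in all 6 groups of cells, and the immediate early sum of CD8 T cells, 6128 and 6709 in skin tumors, is the lowest of the tumor values.

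The largest rises and falls were named by a fixed rule. Setbp1, a SET-binding protein, was at 4.35 and 0 CPM in control skins against 428 and 497 in skin tumors, a log2 fold change of 7.16 ± 0.46 (edgeR adjusted p = 6.0e-04). It was found in 2 of 116 and 0 of 43 control cells and in 98 of 146 and 16 of 32 tumor cells, so the rise was spread over many cells. Filip1, a filamin-interacting protein, had no UMI in control skins against 73.3 and 60.3 CPM in skin tumors, at least 37.6-fold higher, in 36 of 146 and 4 of 32 cells, with 12 of its 21 UMIs in skin tumor 2 in 1 cell. Penk (proenkephalin), Nrn1 (neuritin), Tff1, Synpo2, Gm30211 and Gm49180 were without a UMI in control skins and between at least 10.5-fold and at least 18.5-fold higher in skin tumors. Gm30211 (chr6:70719074-70740554 on the plus strand of GRCm38) spans the immunoglobulin gene Igkc (chr6:70726435-70726966, same strand). The part of immunoglobulin RNA in the counts of Gm30211 was not tested. Of the Penk UMIs 37 of 62 and 3 of 5 lay in 1 cell of each skin tumor, and in skin tumor 2 1 cell held 3 of 5 UMIs of Gm30211 and 1 held 4 of 5 of Gm49180. Acod1, a myeloid enzyme that makes itaconate, was at least 15.5-fold higher, but 41 of its 44 and 7 of its 12 UMIs lay in 1 cell of each skin tumor. Without skin tumor 1 these genes other than Setbp1 and Filip1 were too low to be tested, as was Gbp5. Without control skin 1 Penk, Nrn1, Tff1, Synpo2, Gm30211 and Acod1 missed the threshold (adjusted p = 0.119, 0.139, 0.157, 0.177, 0.304 and 0.083), and Gm49180 and Gbp5 were too low to be tested.

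Among the falls, Cd207, the langerin gene of Langerhans cells, stood at 37.4 and 25 CPM in control skins and had no UMI in skin tumors, at least 21.7-fold lower. In all cells that passed the limits Cd207 fell from 1515 and 1050.2 UMIs per 1000000 to 2.31 and 13.2, and the part of RNA from those cells in this result was not tested. Blk was carried by 1 cell in each control skin (26 and 14 UMIs), and 118 of 135 and 20 of 22 UMIs of Palld lay in 1 cell each. These falls were carried by single cells. Ppp1r14c (20 of 30 and 17 of 18 UMIs in 1 cell), B4galnt4, Gm14718 and 5830411N06Rik (15 of 16 UMIs of control skin 2 in 1 cell) were the others besides Itgae, Gzmc and Ccr10. Without control skin 1 B4galnt4, 5830411N06Rik, Palld and Ppp1r14c missed the threshold (adjusted p = 0.35, 0.328, 0.247 and 0.277), and Cd207, Blk, Gm14718 and Ccr10 were too low to be tested. Without skin tumor 1 B4galnt4, Gm14718 and Ppp1r14c missed it (adjusted p = 0.064, 0.153 and 0.063), and Ccr10 was too low to be tested. Of all 358 called genes, 27 had over 50% of their UMIs in 1 cell in a library of the higher group, and 10 in both.

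The share of cells with a transcript was taken after thinning each cell to 2000 UMIs, so that depth is equal, and beside it at full depth. C1q macrophages (at least 5 UMIs of C1qa, C1qb and C1qc, no CD3 or Trac, median depth 15523.5 to 18955 UMIs, at most 300 thinned per library) gave the background of free RNA. Itgae was found in 50.9%, 51.2%, 0% and 3.12% of thinned cells. The count of 0 in 146 cells of skin tumor 1 allows a share of up to 2.05% of cells with a UMI at this thinned depth, which limits detection and not expression (3 counts over 146 cells; the exact Clopper-Pearson 95% upper limit is 2.49%). At full depth the shares of Itgae were 87.7% ± 8.89 in control skins against 5.03% ± 6.14 in skin tumors (SD, n = 2), against 22.1% and 4.10% in macrophages. Tox was found in 19.8%, 32.6%, 55.5% and 46.9% of thinned cells and Pdcd1 in 11.2%, 11.6%, 34.9% and 18.8%. Lag3 was found in no thinned control cell and in 8.22% and 15.6% of tumor cells (macrophages 0.196% and 1.52%). At full depth Lag3 was found in 0.431% of control and 29.5% of tumor CD8 T cells, against 3.44% and 8.88% of macrophages, so the control share lay at background. Gzmb was alike in both groups (44.0%, 44.2%, 36.3% and 50% thinned), whereas Tcf7 was found in 25%, 18.6%, 8.22% and 6.25%.

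**Figure D4:**
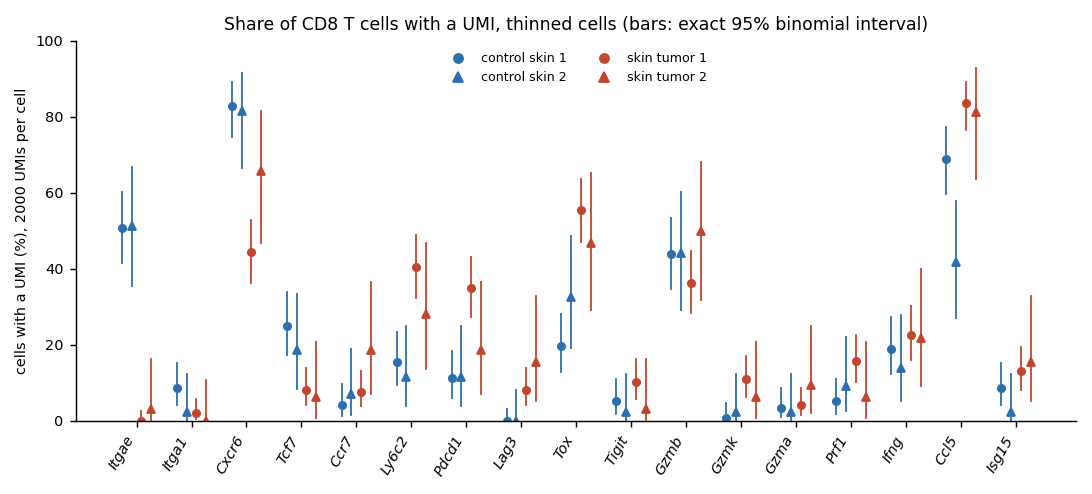
Share of CD8 T cells with at least 1 UMI of 17 genes in each library after thinning to 2000 UMIs per cell (blue: control skins, red: skin tumors; circles: replicate 1, triangles: replicate 2; bars: exact 95% binomial intervals, counting error only). Itgae is at 50.9% and 51.2% in control skins against 0% and 3.12% in skin tumors, and Tox and Ly6c2 are higher in both skin tumors.

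To ask where CD8 T cells respond otherwise than related lymphocytes, the tumor effect was compared with that in CD4 conventional T cells and in NK cells (Ncr1 or Klrb1c present, CD3 and Trac absent) of the same libraries by an interaction term in edgeR with library as a term. Against CD4 conventional T cells (70, 32, 122 and 89 cells) 9 of 8059 genes differed, 2 with the higher effect in CD8 T cells (0.0248% of the genes tested) and 7 with the lower (0.0869%). Itgae fell more in CD8 T cells, from 428 and 391 CPM to 2.59 and 11.6, than in CD4 conventional T cells, from 198 and 163 to 26.8 and 33.8, a difference of -3.74 ± 0.52 on the log2 scale (adjusted p = 0.02). Gpr55, a lipid receptor, behaved likewise (-3.87 ± 0.51, adjusted p = 0.016) but did not pass without skin tumor 1 (-2.64, adjusted p = 0.055). The chemokine Ccl4 stood at 488, 560, 472 and 199 CPM in CD8 T cells and rose from 21.3 and 40.7 to 413 and 157 in CD4 conventional T cells (difference -3.92 ± 0.34, adjusted p = 8.1e-04). Ccl3 gave -5.15 in the same direction and Ccl1 -8.00. Il10ra rose in CD8 T cells and stood at 113 and 159 against 83.2 and 64.3 CPM in CD4 conventional T cells (difference 2.82 ± 0.35, adjusted p = 0.01). Calca (6.03) and Cd40lg (-3.25) lay at the threshold (adjusted p = 0.05 each, and 0.052 with library size alone), and Lgals7, a keratinocyte gene, rested on control skin 1 (-9.12, and -5.08 with adjusted p = 0.39 without it). With a library left out the differences of Itgae, Ccl1, Calca and Cd40lg stayed past the threshold but moved in size. Itgae ran from -4.50 (without skin tumor 2) to -2.73 (without skin tumor 1) and Calca from 5.06 (without skin tumor 1) to 9.65 (without skin tumor 2), while Ccl1 was -5.60 without control skin 2 and Cd40lg -7.26 without skin tumor 1. The number of calls was 45 without control skin 1, 127 without control skin 2, 100 without skin tumor 1 and 107 without skin tumor 2.

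Of the interferon list 0 of 63 tested genes differed between CD8 and CD4 conventional T cells by edgeR (10 at an unadjusted p under 0.05), of the heat shock list 0 of 15 (5 unadjusted) and of the exhaustion list 0 of 22 (3 unadjusted). Over all 8059 genes 9 were called and 6.96% had an unadjusted p under 0.05, so counts of 0 in lists of this size say nothing particular about them.

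Against NK cells (36, 27, 72 and 48 cells) 68 of 6327 genes differed, 35 with the higher effect in CD8 T cells (0.553%) and 33 with the lower (0.522%). Of the exhaustion list 5 of 21 genes were above, 1 was below and 15 had an unadjusted p under 0.05 (11.6% of all genes tested). Tox rose in CD8 T cells, and the difference was 2.80 on the log2 scale (edgeR adjusted p = 0.005). Pdcd1 was at 57.9, 86.6, 261 and 268 CPM in CD8 T cells and at 26.7, 8.08, 3.0 and 2.53 in NK cells (difference 4.53 ± 0.87, adjusted p = 0.031), Entpd1 differed by 2.87 (adjusted p = 0.021) and Rgs16 by 3.95 (adjusted p = 0.0059). Pdcd1 and Entpd1 missed the threshold without control skin 1 (adjusted p = 0.384 and 0.134). Cd101 fell more in NK cells (3.86, adjusted p = 0.049), a call lost without control skin 1, skin tumor 1 or skin tumor 2 (adjusted p = 0.078, 0.085 and 0.059). Nr4a1 fell more in CD8 T cells (-1.58, adjusted p = 0.038), a call lost without control skin 1 or skin tumor 1 (0.096 and 0.2). Gzmb went the other way: it rose in NK cells from 229 and 70.0 CPM to 1111 and 1030, while CD8 T cells held 978, 616, 474 and 661, a difference of -3.46 ± 0.34 (adjusted p = 9.1e-04). Setbp1 rose more in CD8 T cells (difference 5.08 ± 0.57, adjusted p = 0.0017) although its level was higher in NK cells of both groups (131, 321, 733 and 823 CPM). Without control skin 1 its difference was 9.92, a fitted value that depends on the prior count since control skin 2 held no UMI in CD8 T cells, and 4.13 without control skin 2. Areg, which encodes amphiregulin, went from 345 and 205 CPM to no UMI in NK cells and was at 46.6, 18.2, 16.7 and 14.4 in CD8 T cells. Of the interferon list 0 of 60 genes differed (10 at an unadjusted p under 0.05) and of the heat shock list 0 of 15 (3 unadjusted). The difference was 3.06 and 5.35 for Pdcd1 and 2.94 and 5.12 for Rgs16 without control skin 1 and without control skin 2, and without control skin 1 it was 2.20 for Tox and -4.08 for Gzmb. The number of calls was 163 without control skin 2 and 244 without skin tumor 2.

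**Figure D5:**
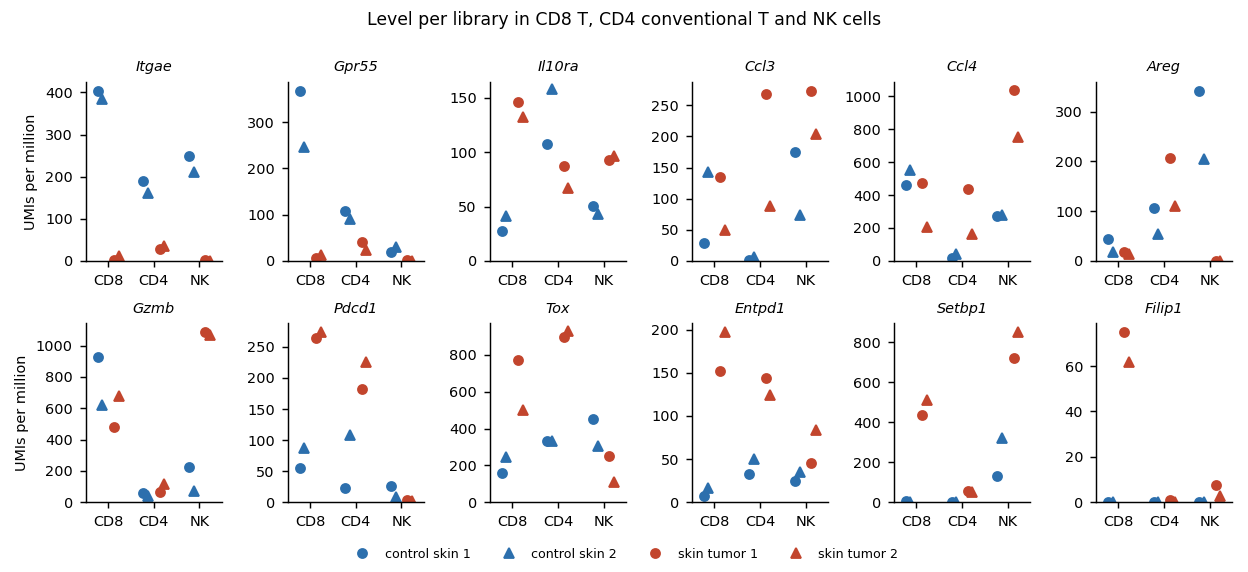
Levels (UMIs per 1000000) of 12 genes in CD8 T cells, CD4 conventional T cells and NK cells of each library, on linear axes that start at 0 (blue: control skins, red: skin tumors; circles: replicate 1, triangles: replicate 2). Itgae is lower in skin tumors in all 3, Ccl4 is higher in skin tumors in CD4 and NK cells but not in CD8 T cells, and Gzmb in NK cells is at 1090.1 and 1066 in skin tumors against 227 and 70.2 in control skins.

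A few called genes belong to other cell types. C1qa rose from 4.35 and 6.83 CPM to 29.3 and 132 (edgeR adjusted p = 0.035, and 0.127 without control skin 1), beside macrophage sums of 3302 and 6093 UMIs per 1000000 in all cells of the control skins and 19103 and 15606 in those of the tumors. Igkc, an immunoglobulin light chain, had no UMI in control CD8 T cells and was in 31 of 146 and 2 of 32 tumor cells (67.6 and 23 CPM), and Ighm rose from 6.09 and 11.4 CPM to 47.8 and 25.8, while Cd79a and Jchain were at 0. Igkc stood at 13.7 and 118 UMIs per 1000000 in all cells of the skin tumors, so skin tumor 1 held more of it in CD8 T cells than in its cells as a whole. Igkc was too low to be tested without skin tumor 1, and Ighm missed the threshold without control skin 1 and without skin tumor 1 (adjusted p = 0.328 and 0.483). Il1b (3.48, 4.55, 37.0 and 77.5 CPM) had 39 of 58 and 18 of 27 UMIs in 1 cell of each skin tumor (adjusted p = 0.054 without control skin 1). Sfn, a keratinocyte gene, fell from 177 and 88.7 CPM to 22.3 and 23 and passed without each library. Of 2 tested ILC2 genes 1 fell, Gata3, and Rora stood at 1562, 1855, 460 and 919 CPM (adjusted p = 0.063). The part of other cells in these results was not tested.

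Variable genes of the T cell receptor beta chain were seen in few cells. A single Trbv gene was found in 21, 9, 37 and 4 cells, spread over 13, 6, 13 and 4 genes, and the most frequent in skin tumor 1 were Trbv4, Trbv16 and Trbv29, each in 5 of 37 cells. In the other libraries the most frequent gene was in 3, 3 and 1 cells, so shares of clones could not be read at this depth.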

How the data were processed

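CD45+ cells of 2 control skins and 2 skin tumors were profiled by droplet 3' RNA sequencing. The deposited files hold UMI counts per gene and cell that the authors made with Cell Ranger on the mm10 genome, version 7.1.0 per the methods and 7.0.1 per the file headers, and whether intronic reads were counted is not given in the sources used here. Libraries held 50932896, 52784293, 73904272 and 34893543 UMIs.

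UMIs were summed per library over the CD8 T cells, since cells are not replicates, and tested by edgeR 4.0.16 (TMM, filterByExpr, quasi-likelihood, Benjamini-Hochberg) in R 4.3.3, with the genes of the rule kept in library sizes but not tested. This differs from the study, which tested cells with the Wilcoxon test. SEs were derived from the F statistic (the size of the log2 fold change divided by the root of F). Interaction fits used 8 sums with library as a term. DESeq2 1.42.0 was an alternative, beside other scaling, no filter, other gates, equal cell numbers, a replicate block and leaving out each library. Scripts were tested on simulated data. No doublet caller was run; cells over 3 times the median UMIs, or with 5 or more UMIs of macrophage and MHC class II genes, were left out as alternatives. Some items are not reported here. Intervals and floors cover counting error only. The members and gene lists were chosen with earlier results of these data known. The text names many, but not all, of the listed genes past the threshold and the most abundant others of each list. It also names the 10 largest called changes each way and the largest called interactions. Genes named beyond this were chosen after their values were seen. Promoter sequences came from RefSeq (GRCm38.p6) and gene positions from GENCODE on GRCm38.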

Additional observations from a re-analysis of the deposited data

Results flagged for a closer look

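The tumor effect differed between CD8 T cells and CD4 conventional T cells of the same libraries by the edgeR interaction test (Benjamini-Hochberg adjusted p) for 5 named genes. On the log2 scale, CD8 T cells minus CD4 conventional T cells, the difference was -9.12 for Lgals7 (adjusted p = 0.0092), -8.00 for Ccl1 (adjusted p = 7.6e-04), 6.03 for Calca (adjusted p = 0.0497), -5.15 for Ccl3 (adjusted p = 0.0028) and -3.92 for Ccl4 (adjusted p = 8.1e-04). Ccl1, a ligand of Ccr8, stood at 3.27 and 16.9 CPM in CD4 conventional T cells of control skins and 601 and 265 in skin tumors, against 2.60, 105, 10.4 and 2.89 in CD8 T cells. Calca, which encodes the neuropeptide CGRP, stood at 208, 186, 0 and 5.45 CPM in CD4 conventional T cells and 37.3, 6.98, 14.9 and 23.1 in CD8 T cells. Lgals7 was at 222 CPM in CD8 T cells of control skin 1 and at most 4.65 in the other libraries, and it missed the threshold without control skin 1 (-5.08, adjusted p = 0.392). The difference of Ccl1 was -5.60 (adjusted p = 0.018) without control skin 2, and that of Calca ran from 5.06 without skin tumor 1 to 9.65 without skin tumor 2.

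Against NK cells the difference was 14.02 for S100a9 (adjusted p = 9.1e-04), 9.81 for S100a8 (adjusted p = 0.0017), 9.50 for Areg (adjusted p = 0.0017), 9.39 for Acod1 (adjusted p = 0.0029) and 9.04 for Ankrd33b (adjusted p = 0.011), by the same test. Genes with no UMI in a group of 1 cell type (S100a9, Areg and Acod1) have fitted values that depend on the prior count. S100a9 stood at 862 CPM in NK cells of control skin 2 and 44.4 in CD8 T cells of skin tumor 1, where 67 of 69 UMIs lay in 1 cell. Without control skin 2 the differences of S100a9 and S100a8 were 3.57 and 3.74 (adjusted p = 1 each), without skin tumor 1 they were 6.39 (adjusted p = 1) and 7.04 (adjusted p = 0.057), and Acod1 gave 6.71 (adjusted p = 0.139) without control skin 2 and 11.03 without control skin 1. Ankrd33b ran from 7.53 without skin tumor 1 to 12.77 without skin tumor 2. The part of neutrophil and myeloid RNA in these differences was not tested.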

How the results depend on the processing

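All 358 genes called kept their sign under the alternatives that gave them a value, and the number called was 271 by DESeq2, 375 with upper quartile scaling and 361 with library size alone. It came to 819 without the filter on low counts, 547 without cells over 3 times the median UMIs, 575 with dividing cells kept and 228 with 32 cells per library. With the replicate numbers as a block it was 658; the numbers share nothing by the labels, and deviations of same-numbered libraries correlated at -0.0149. Leaving out a library gave 105 to 725 genes, 45 to 127 for the comparison with CD4 conventional T cells and 54 to 244 with NK cells. The difference in the share of CD8 T cells (tumor minus control, percentage points) was -1.41 to 0.966 among all cells without a library. Among alpha beta T cells it was -15.2, from shares of 53.0%, 38.4%, 41.8% and 19.0% that overlapped between groups (exact permutation p = 0.667), and -26.6 to -3.85 without a library (-3.85 without skin tumor 2), a repeat chosen after seeing the data. With a library left out, log2 fold changes of uncalled genes ran across 0, from -1.99 to 4.15 (without control skin 2) for Ifih1, and down to their lowest without skin tumor 2 from -1.59 to 2.28 for Apoe, -3.08 to 2.25 for Mrc1, -1.40 to 1.31 for Cd74 and -1.33 to 1.49 for H2-Eb1. The sign also turned for the share with Ifng after thinning to 1000 UMIs (-3.83 percentage points); the cause was not tested. With 32 and 43 cells in the smaller libraries, low genes such as Lag3 could not be tested without skin tumor 1.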
